A study of Mus musculus with 16 samples.

Results

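The 44 genes described here are the core machinery of G2 and mitosis, taken as a list of gene names from textbook roles: cyclins and Cdk1, mitotic kinases, the chromosomal passenger complex, the spindle checkpoint, activators and targets of the anaphase-promoting complex, kinesins, kinetochore proteins, proteins of the spindle and of cytokinesis, and the pair Foxm1 and Mki67. All 44 were found by symbol among the 22375 genes of the count tables, and all 44 had enough reads to be tested, with raw counts from 301 to 40033 per library. RNA was measured in mouse embryonic stem (ES) cells of the strain 129/OLA. WT cells were of the line E14TG2a. Cfp1-/- ES cells lack Cxxc1, the gene of CXXC finger protein 1, which binds unmethylated CpG and brings a histone H3K4 methyltransferase complex to promoters. Each genotype was left untreated or received doxorubicin for 6 hours. Doxorubicin poisons topoisomerase II and so breaks DNA. The dose was 1 μM by the protocol, whereas the treatment label of the treated samples gives 1 mM. Each of the 4 groups held 2 biological replicates, each sequenced in 2 technical replicates. What separates the biological replicates is not stated, so the p-values measure the spread between these libraries. Whether the Cfp1-/- cells were 1 clone is not stated, and genotype and line cannot be told apart.

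Cells that leave S phase raise cyclin B and Cdk1, whose activity drives entry into mitosis. Polo and Aurora kinases then build the spindle, the spindle checkpoint holds anaphase back until every kinetochore is attached, and the anaphase-promoting complex (APC/C) with Cdc20 ends mitosis by destroying cyclins and securin. Most of these genes are transcribed late in the cell cycle under the MuvB complex, which binds a short promoter element called the CHR and acts as an activator with B-Myb and Foxm1 or as a repressor, in the DREAM complex, with p130. DNA damage stops cells in G2, and mouse ES cells are known for a weak G1 checkpoint and a strong G2 arrest.

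The level of a gene is given as CPM, the counts of a gene scaled to a common library size of 1000000 after TMM normalization, for biological replicates 1 and 2 in that order, with technical replicates summed. The second run of treated Cfp1-/- replicate 1 was left out, because 439 of the 8320 genes with at least 200 counts in its first run had none in it. These genes lay on chromosomes 19, X and Y, where Incenp had 1073 counts in the first run and 0 in the second, Kif4 had 977 and 1, and Kif11 had 3513 and 227. The libraries then held 11772320 to 29422711 counts. The runs of treated WT replicate 1 also differed beyond sampling noise, (chi-square divided by its degrees of freedom 9.61, against 0.998 to 1.05 in 6 other pairs), and were kept. Cxxc1 had 616 to 1412 counts in WT libraries and 1 to 4 in Cfp1-/- libraries. Marker sums were scaled by total counts alone, without TMM normalization. The summed CPM of 10 pluripotency markers was 3602 to 4507 in untreated WT and 4173 to 4439 in untreated Cfp1-/- cells. It was 1795 to 2254 and 2106 to 2187 after treatment, and the part of this fall in the results was not tested. Of these markers 9 fell in WT and 7 in Cfp1-/- cells, against 22.8% and 21.4% of all genes tested. In untreated Cfp1-/- against untreated WT cells 4 of the 10 were lower and 3 higher, against 17.2% and 18.7% of all genes tested. The log2 differences of single markers ran from -1.31 to 1.71, which the sums do not show. The 7 markers each of primitive endoderm and of fibroblasts summed to 2.86 to 29.6 and 3.42 to 26.4 CPM over all libraries, higher with than without doxorubicin, and the fibroblast gene Lum had at most 3 counts in each.

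Doxorubicin lowered most G2 and mitosis genes in WT ES cells. Of the 44 genes, 36 were lower and 2 were higher (adjusted p under 0.05), against 22.8% of the 15762 genes tested that were lower and 27.0% that were higher. The median log2 fold change was -0.87, against 0.06 for all genes tested. In 38 genes both treated libraries lay below both untreated libraries, which held for 33.9% of all genes. The largest falls were those of Plk1, Nusap1, Kif18a, Prc1, Ect2 and Tpx2, and the genes that rose were Gtse1 and Spc25. In RNA from whole cultures, fewer cells in G2 and mitosis and less RNA per cell cannot be told apart. Fold changes, standard errors (SE) and adjusted p-values come from the quasi-likelihood test of edgeR, adjusted over all genes tested by the Benjamini-Hochberg method.

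**Figure D1:**
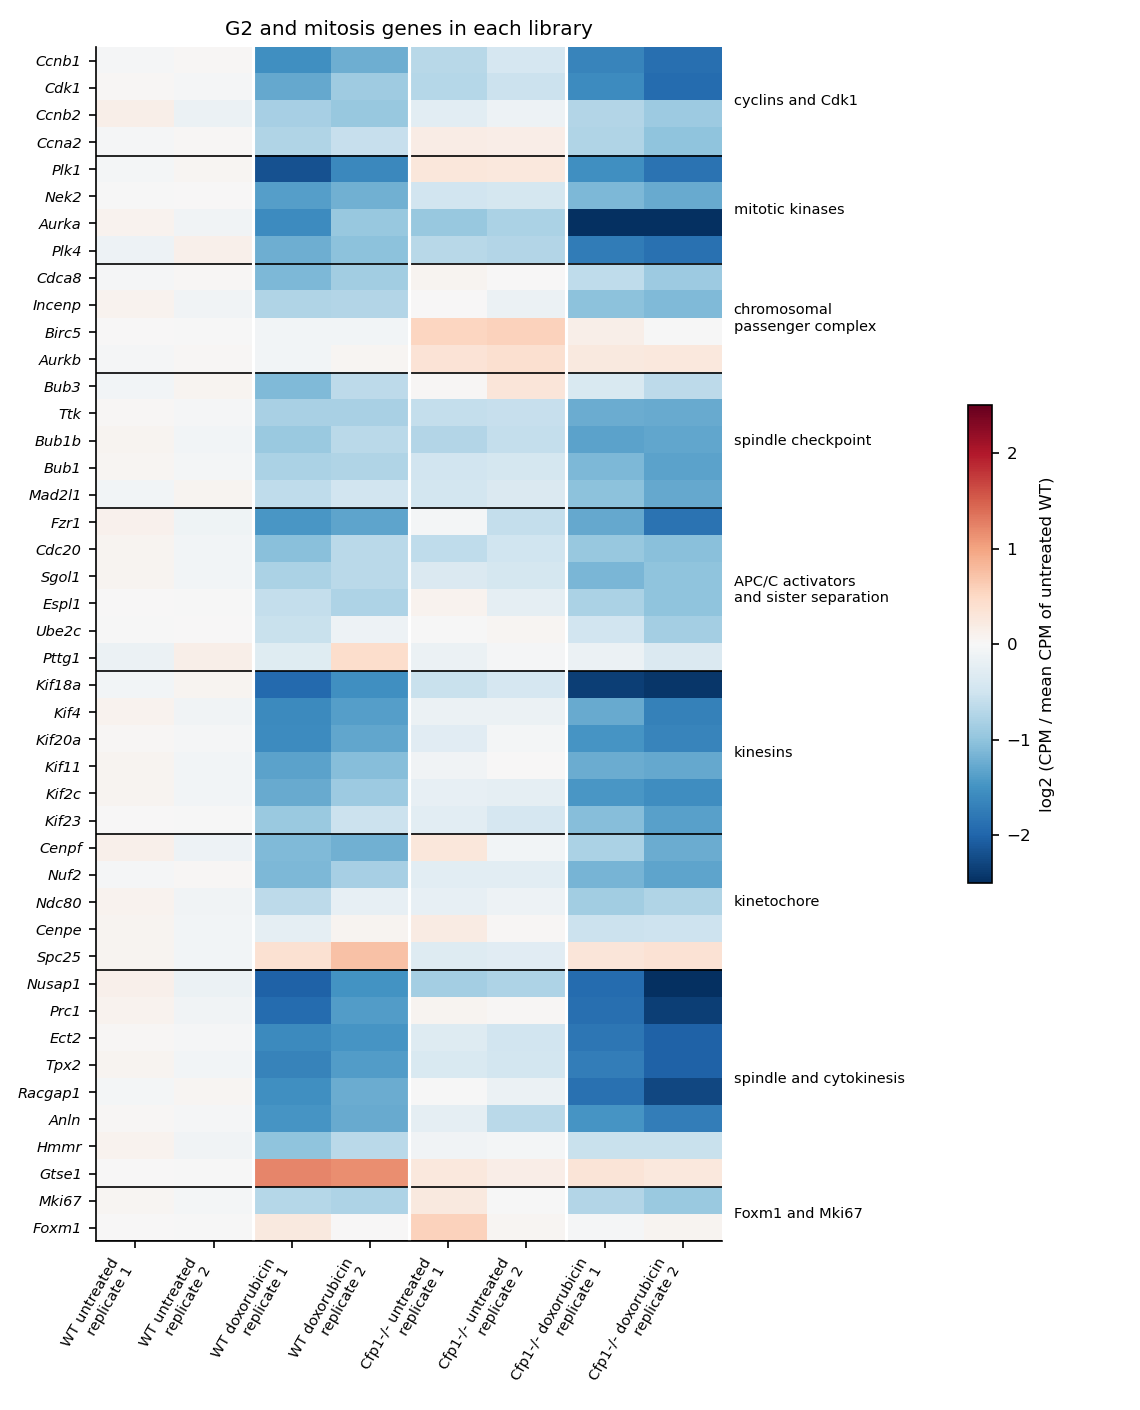
Level of each of the 44 genes (rows, by role) in each of the 8 libraries (columns), as the log2 ratio of its CPM to the mean of the untreated WT libraries, with colours ending at 2.5 on either side. Blue fills the treated columns of both genotypes in most genes. Gtse1 and Spc25 are red in treated WT cells and paler red in treated Cfp1-/- cells. Genes such as Aurkb, Birc5, Pttg1 and Foxm1 stay pale.

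All 4 cyclin and Cdk1 genes fell in WT cells. Ccnb1, which encodes cyclin B1 (chromosome 13, 101548605 to 101556525, NCBIm37), stood at 568 and 590 CPM in untreated cells and at 199 and 250 in treated cells. Its log2 fold change was -1.37 (SE 0.15, adjusted p = 9.79e-05). Cdk1, the kinase that cyclin B activates, went from 249 and 241 to 100 and 132 CPM, a log2 fold change of -1.07 (SE 0.16, adjusted p = 0.000602). Neither gene's treated libraries overlapped the untreated ones. Ccnb2 and Ccna2, which encode cyclins B2 and A2, fell by 0.89 and 0.66 on the log2 scale.

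All 4 mitotic kinase genes fell as well. Plk1, the polo kinase needed for mitotic entry and spindle assembly (chromosome 7), stood at 123 and 130 CPM in untreated and at 27.9 and 41.5 CPM in treated WT cells. This log2 fold change of -1.86 (SE 0.19, adjusted p = 5.54e-05) was the largest fall of the 44 genes, and the level fell by 72.5%. Aurka, whose kinase matures centrosomes, went from 178 and 158 to 56.0 and 86.5 CPM (log2 fold change -1.23, SE 0.19, adjusted p = 0.000675). Nek2, which splits centrosomes, and Plk4, which starts centriole duplication, had log2 fold changes of -1.28 and -1.12.

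The chromosomal passenger complex, which corrects wrong attachments of chromosomes to the spindle, was divided. Its kinase gene Aurkb stood at 62.3 and 65.7 CPM in untreated and at 61.2 and 66.5 CPM in treated WT cells, and the groups overlapped (log2 fold change -0.0020, SE 0.12, adjusted p = 0.992). Birc5, which encodes survivin, had 180 and 178 CPM before and 170 in each library after treatment (log2 fold change -0.08, adjusted p = 0.587). Cdca8, which encodes borealin, and Incenp, the scaffold of the complex, fell by 0.98 and 0.75 on the log2 scale. The Incenp libraries were at 178 and 157 CPM without and 99.1 and 100 CPM with doxorubicin.

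The 5 spindle checkpoint genes all fell, over a narrow range. Their log2 fold changes ran from -0.86 in Bub3, through -0.81 in the checkpoint kinase gene Ttk, -0.80 in Bub1b and -0.76 in Bub1, to -0.55 in Mad2l1, which encodes the Mad2 protein that binds Cdc20. Bub1b, which encodes BubR1, went from 504 and 457 to 252 and 300 CPM.

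Among the 6 genes of APC/C activators and of sister chromatid separation 4 fell. Fzr1, which encodes the activator Cdh1, stood at 60.5 and 52.3 CPM in untreated and at 20.7 and 22.5 CPM in treated WT cells, a log2 fold change of -1.38 (SE 0.23, adjusted p = 0.000954). Cdc20, the activator with which the APC/C ends mitosis, went from 298 and 274 to 139 and 178 CPM (log2 fold change -0.85, SE 0.14, adjusted p = 0.000869). Sgol1, which protects centromeric cohesin, and Espl1, which encodes separase, had log2 fold changes of -0.73 and -0.68. Pttg1, which encodes the separase inhibitor securin, had 52.4 and 64.2 CPM in untreated and 47.1 and 79.3 CPM in treated cells, so that its groups overlapped (log2 fold change 0.12, adjusted p = 0.69). Pttg1 had 568 counts in the first and 178 in the second run of treated WT replicate 1, whereas Ccnb1 had 1852 and 1308. Ube2c, the ubiquitin-conjugating enzyme of the APC/C, did not pass the test at a log2 fold change of -0.32 (adjusted p = 0.152).

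All 6 kinesin genes fell. Kif18a, whose motor shortens kinetochore microtubules, went from 155 and 171 to 42.3 and 56.6 CPM (log2 fold change -1.72, SE 0.16, adjusted p = 2.97e-05). Kif4, a chromosome-borne motor, went from 190 and 168 to 59.8 and 68.6 CPM (log2 fold change -1.48, SE 0.16), and Kif20a, a motor of the central spindle, from 377 and 365 to 124 and 150 CPM (log2 fold change -1.44, SE 0.14). Kif11, which pushes spindle poles apart, stood at 664 and 606 CPM without and 252 and 303 CPM with doxorubicin. Kif2c, a microtubule depolymerase, and Kif23, a subunit of centralspindlin, fell by 1.08 and 0.72 on the log2 scale.

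The kinetochore genes moved in both directions. Cenpf and Nuf2 fell by 1.15 and 0.97 on the log2 scale, Ndc80 by 0.41 (adjusted p = 0.0483), and Cenpe, a kinetochore motor gene, had a log2 fold change of -0.07 (adjusted p = 0.67). Spc25, which lies on chromosome 2 and encodes a subunit of the same complex as Ndc80 and Nuf2, rose from 148 and 134 to 185 and 234 CPM (log2 fold change 0.57, SE 0.13, adjusted p = 0.00643). Both treated libraries of Spc25 lay above both untreated ones. The calls of Ndc80 and Spc25 were the weak ones of the group. Without untreated WT replicate 2 the adjusted p of Spc25 was 0.0558, and that of Ndc80 was above 0.05 whichever library was left out except treated WT replicate 2.

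The genes of the spindle and of cytokinesis held the largest falls as a group, with a median log2 fold change of -1.45, and 7 of 8 fell. Nusap1, which bundles spindle microtubules, went from 233 and 193 to 52.3 and 75.1 CPM (log2 fold change -1.74, SE 0.22, adjusted p = 0.000197). Prc1, which cross-links the central spindle, went from 402 and 354 to 99.7 and 144 CPM (log2 fold change -1.63, SE 0.20). Ect2, the activator of RhoA at the cleavage furrow, stood at 502 and 481 CPM without and 162 and 177 CPM with doxorubicin (log2 fold change -1.53, SE 0.13, adjusted p = 1.89e-05). Tpx2, which activates Aurora A on the spindle, went from 574 and 522 to 173 and 209 CPM (log2 fold change -1.52, SE 0.14). Racgap1, the partner of Kif23 in centralspindlin, went from 118 and 125 to 41.7 and 51.1 CPM (log2 fold change -1.39, SE 0.16). Anln, which encodes anillin, and Hmmr fell by 1.36 and 0.83 on the log2 scale.

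Gtse1 was the exception. This gene (chromosome 15) encodes a microtubule-binding protein of G2 that restrains p53 and is itself a p53 target in mouse cells. It stood at 136 and 133 CPM in untreated and at 315 and 301 CPM in treated WT cells, with a log2 fold change of 1.19 (SE 0.11, adjusted p = 2.93e-05). Every alternative fit left this rise past the threshold.

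Foxm1, which encodes a transcription factor of G2 genes, did not pass the test. It had 36.4 and 35.9 CPM in untreated and 42.9 and 36.3 CPM in treated WT cells (log2 fold change 0.13, SE 0.19, adjusted p = 0.588). Mki67, which encodes the proliferation marker Ki-67, fell from 1546 and 1450 to 914 and 874 CPM (log2 fold change -0.74, SE 0.13, adjusted p = 0.00138). Foxm1 also had the lowest level per length of the 44 genes, at 6.57 CPM per kilobase of exon in untreated WT cells. Cdc20, Mki67 and Ccnb1 had the highest, at 153, 149 and 137 CPM per kilobase. The median level of the 44 genes was 59.3 CPM per kilobase, against 4.30 for all genes tested.

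The study's methods set limits of 0.05 for the adjusted p, 2.5 for the fold change and 200 for the mean normalized count. Past these limits 12 of the 44 genes were downregulated in WT cells, against 2.80% of all genes tested. They were Anln, Ccnb1, Ect2, Fzr1, Kif18a, Kif20a, Kif4, Nusap1, Plk1, Prc1, Racgap1 and Tpx2. With libraries matched by replicate number, the median log2 ratio of the 44 genes lay 1.12 below that of all genes in replicate 1 and 0.825 below in replicate 2. Scaling by total counts moved the median of all genes tested from 0.06 to 0.37 on the log2 scale, and 34 of the 44 genes were then lower and 2 higher.

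Cfp1-/- ES cells lowered the same machinery. Of the 44 genes, 39 were lower after doxorubicin and 1 was higher, against 21.4% and 27.7% of all genes tested. The median log2 fold change was -0.91, against 0.01 for all genes tested. All 36 genes that fell in WT cells also fell in Cfp1-/- cells, and Birc5, Cenpe and Ube2c fell in Cfp1-/- cells as well. The call of Birc5 was lost with total count scaling (adjusted p = 0.0537) and without treated Cfp1-/- replicate 2 (0.061), and that of Ube2c without untreated (0.0509) or treated (0.116) Cfp1-/- replicate 2. Among the 36 genes, the call of Hmmr in Cfp1-/- cells was lost with total count scaling (adjusted p = 0.113). It was also lost without untreated replicate 2 or either treated replicate. The call of Bub3 was lost without untreated or treated replicate 2, and that of Ccnb2 without treated replicate 2. In 41 genes both treated libraries lay below both untreated ones, which held for 37.3% of all genes. The exceptions were Spc25, Gtse1 and Foxm1. By the study's limits 9 genes were downregulated, against 2.21% of all genes tested, namely Aurka, Ect2, Kif18a, Kif20a, Nusap1, Plk1, Prc1, Racgap1 and Tpx2.

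The largest falls in Cfp1-/- cells were those of Prc1, Racgap1, Plk1, Kif18a and Aurka. Prc1 went from 394 and 383 to 102 and 73.8 CPM, a log2 fold change of -2.15 (SE 0.20, adjusted p = 4.36e-05). Racgap1 went from 121 and 110 to 33.4 and 25 CPM (log2 fold change -1.99, SE 0.17, adjusted p = 2.66e-05), and Plk1 from 155 and 152 to 43.6 and 35 CPM (log2 fold change -1.97, SE 0.19). Aurka, at 86.9 and 96.7 CPM without doxorubicin, stood at 28.9 and 25.2 CPM with it (log2 fold change -1.77, SE 0.20, adjusted p = 0.000113). In none of these did the groups overlap.

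Kif18a had a log2 fold change of -1.90. After these 5 genes came Ect2 (log2 fold change -1.51), Tpx2 (-1.45), Kif20a (-1.41), Nusap1 (-1.38) and Kif4 (-1.31). Kif4, Kif11 and Incenp lie where the left-out run held few or no counts. Their values in treated Cfp1-/- cells were 75.1 and 55.7 CPM for Kif4, 270 and 261 CPM for Kif11, and 82.4 and 77.7 CPM for Incenp, with log2 fold changes of -1.31, -1.22 and -0.995. Ccnb1 went from 356 and 431 to 184 and 157 CPM (log2 fold change -1.21, SE 0.15), Cdk1 from 150 and 170 to 82.0 and 64.7 CPM (log2 fold change -1.13, SE 0.17), and Mki67 from 1777 and 1482 to 904 and 785 CPM (log2 fold change -0.95, SE 0.13). Cdc20 fell least among the activators that passed the test, from 184 and 202 to 148 and 138 CPM (log2 fold change -0.44, SE 0.14, adjusted p = 0.0265), and this call was lost with total count scaling and when untreated replicate 2 or either treated replicate of Cfp1-/- cells was left out. Fzr1 went from 54.3 and 37.1 to 23.1 and 15.7 CPM (log2 fold change -1.24, SE 0.23).

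Aurkb and Foxm1 did not pass the test in Cfp1-/- cells either. Aurkb had 81.0 and 84.7 CPM without and 76 and 76.5 CPM with doxorubicin (log2 fold change -0.12, adjusted p = 0.419). Foxm1 had 53.8 and 37.2 CPM without and 35.3 and 37.8 CPM with it (log2 fold change -0.32, adjusted p = 0.188). Spc25 rose again, from 112 and 116 to 174 and 181 CPM (log2 fold change 0.64, SE 0.13, adjusted p = 0.00367).

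**Figure D2:**
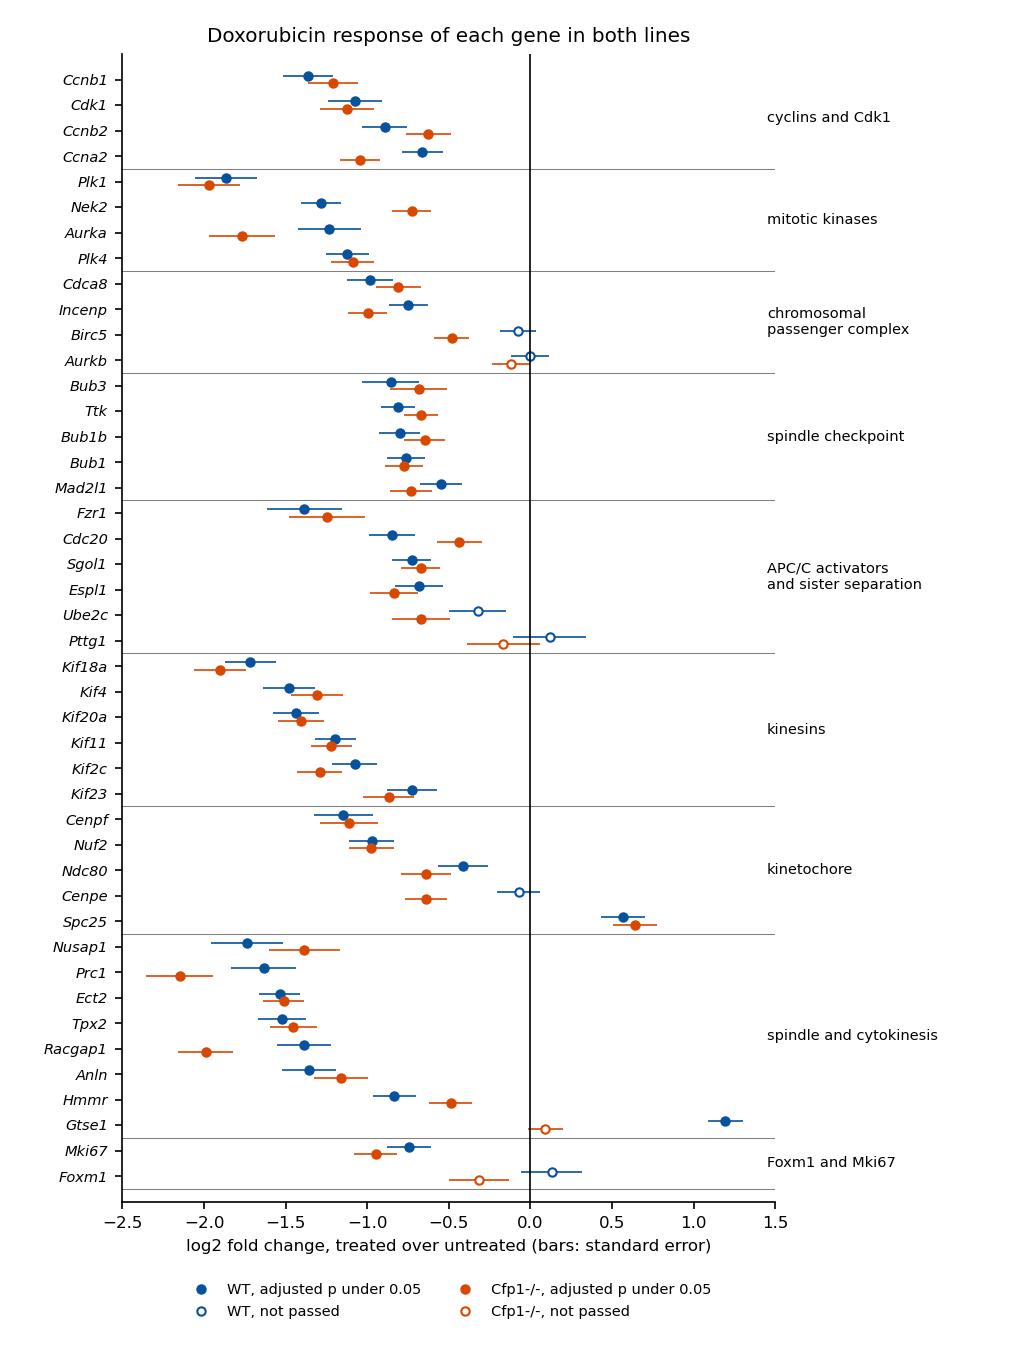
Log2 fold change of each gene (treated over untreated) with its standard error in WT (blue) and Cfp1-/- (orange) ES cells, filled where the adjusted p was under 0.05. The points of both lines lie within 1 log2 unit of each other except in Gtse1, at 1.19 in WT and 0.09 in Cfp1-/- cells.

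The responses of the lines were then compared by the interaction of genotype and treatment. Gtse1 was the 1 gene of 44 that passed this test, which 0.247% of all genes passed. In Cfp1-/- cells Gtse1 stood at 161 and 150 CPM without and 170 and 162 CPM with doxorubicin. Both treated libraries lay above both untreated ones by a narrow margin, and the change did not pass the test (log2 fold change 0.09, SE 0.11, adjusted p = 0.507). With total count scaling it passed as a rise (log2 fold change 0.302, adjusted p = 0.036). The response was lower by 1.10 on the log2 scale than in WT cells (SE 0.15, adjusted p = 0.0315, 95% interval -1.44 to -0.76). The difference kept its sign and size, between -1.16 and -1.07, with each library left out in turn, but its adjusted p then ran from 0.0576 to 0.227.

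For the other 43 genes the difference of responses ran from -0.60 in Racgap1 to 0.55 in Nek2, and the lowest adjusted p was 0.26. The 95% interval lay within 1 log2 unit of 0 for 38 of the 44 genes. It reached beyond for Aurka, Prc1, Racgap1, Nusap1, Foxm1 and Gtse1, so that a 2-fold difference in response was not shut out for these. For Plk1 the interval was -0.69 to 0.48, for Ccnb1 -0.32 to 0.64, for Cdk1 -0.57 to 0.47 and for Mki67 -0.62 to 0.21. Birc5, Cenpe and Ube2c, which passed the test in Cfp1-/- cells alone, differed in response by -0.41 (adjusted p = 0.354), -0.57 (adjusted p = 0.295) and -0.35 (adjusted p = 0.642), so that a difference between lines was not shown. Across the 44 genes the responses of the lines had a Spearman's rho of 0.868, as a description of genes that share 8 libraries, 1 fit and replicate numbers.

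**Figure D3:**
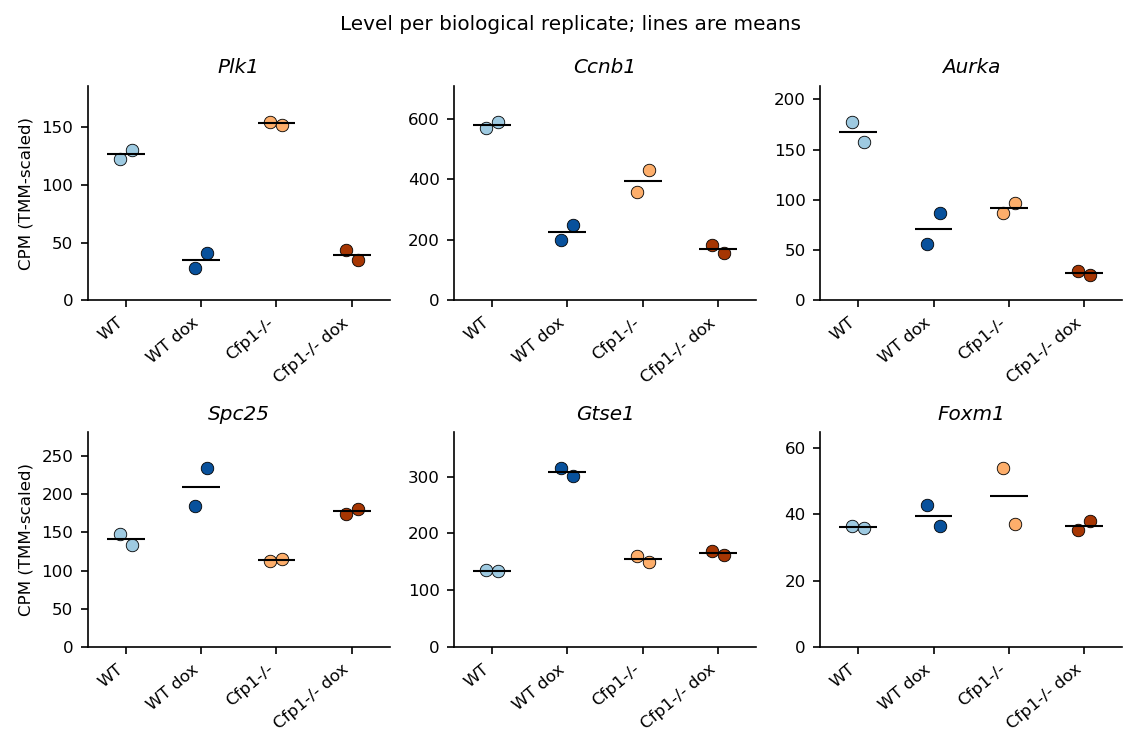
Level of 6 genes in CPM, with a point for each biological replicate and a line for the mean of its group, on axes that start at 0. Plk1, Ccnb1 and Aurka fall in both lines, and Spc25 rises in both. Gtse1 rises from 136 and 133 to 315 and 301 CPM in WT cells, whereas its change in Cfp1-/- cells did not pass the test. Foxm1 overlaps between treated and untreated cells.

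Promoters of the genes were searched for the letters of the CHR core, TTTGAA, and of the CCAAT box, CCAAT, which NF-Y binds, each on both strands. The motifs can share no more than an end base. The windows, taken from RefSeq (GRCm38.p6), run from 250 bases before to 50 bases after a gene's start. Of the 44 genes 38 had a window, 42 windows in all, Sgol1 under its symbol Sgo1. Ccna2, Aurkb, Incenp, Kif20a, Tpx2 and Foxm1 had none. The CHR core letters were in 27 of the 42 windows (64.3%), against 17.9% of all 32851 windows. The CCAAT letters were in 32 (76.2%), against 37.4%, and 24 windows (57.1%) held both, against 6.95%. Of 36 windows of DNA replication genes, 4 held the CHR core (11.1%) and 21 the CCAAT letters (58.3%). In the 42 windows 25 of 33 CHR matches and 26 of 67 CCAAT matches began within 50 bases of the start. The positions of matches in all windows were not counted.

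The windows of the largest falls in WT cells that held a match are shown first, followed by those of Spc25 and Gtse1, which were chosen after their rise was seen. Capitals mark CHR core and CCAAT letters on either strand, and each sequence is given 5′ to 3′ on the strand of the gene.
Plk1 (chr7:122159185-122159484, GRCm38.p6, plus strand): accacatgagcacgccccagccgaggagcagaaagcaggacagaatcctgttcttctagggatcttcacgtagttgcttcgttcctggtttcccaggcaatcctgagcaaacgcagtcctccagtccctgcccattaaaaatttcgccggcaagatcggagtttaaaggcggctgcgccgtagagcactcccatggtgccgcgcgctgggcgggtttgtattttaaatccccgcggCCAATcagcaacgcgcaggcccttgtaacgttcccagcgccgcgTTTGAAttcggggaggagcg
Prc1 (chr7:80294201-80294500, GRCm38.p6, plus strand): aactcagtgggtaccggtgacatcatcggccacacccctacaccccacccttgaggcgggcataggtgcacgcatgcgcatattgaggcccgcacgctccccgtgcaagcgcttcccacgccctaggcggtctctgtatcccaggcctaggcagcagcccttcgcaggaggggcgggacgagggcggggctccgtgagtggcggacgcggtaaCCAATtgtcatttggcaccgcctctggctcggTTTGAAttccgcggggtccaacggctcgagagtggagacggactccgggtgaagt
Ect2 (chr3:27153829-27154128, GRCm38.p6, minus strand): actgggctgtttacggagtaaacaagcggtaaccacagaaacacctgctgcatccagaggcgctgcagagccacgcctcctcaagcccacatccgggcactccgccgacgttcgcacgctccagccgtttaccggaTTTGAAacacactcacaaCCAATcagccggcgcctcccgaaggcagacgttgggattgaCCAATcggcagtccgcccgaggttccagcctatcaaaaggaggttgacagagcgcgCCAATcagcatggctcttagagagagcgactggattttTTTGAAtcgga
Kif4 (chrX:100625815-100626114, GRCm38.p6, plus strand): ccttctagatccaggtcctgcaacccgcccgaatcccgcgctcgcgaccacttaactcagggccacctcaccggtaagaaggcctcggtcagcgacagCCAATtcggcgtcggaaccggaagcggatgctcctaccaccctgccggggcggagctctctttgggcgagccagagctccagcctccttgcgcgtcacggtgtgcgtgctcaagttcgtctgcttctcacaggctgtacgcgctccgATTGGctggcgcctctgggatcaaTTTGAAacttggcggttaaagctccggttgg
Spc25 (chr2:69206164-69206463, GRCm38.p6, minus strand): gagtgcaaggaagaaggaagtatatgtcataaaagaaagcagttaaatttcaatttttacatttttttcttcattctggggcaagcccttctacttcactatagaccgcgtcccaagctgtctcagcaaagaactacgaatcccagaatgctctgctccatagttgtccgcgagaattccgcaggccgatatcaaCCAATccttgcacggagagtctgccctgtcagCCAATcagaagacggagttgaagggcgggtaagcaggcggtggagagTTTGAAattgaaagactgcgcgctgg
Gtse1 (chr15:85859457-85859756, GRCm38.p6, plus strand): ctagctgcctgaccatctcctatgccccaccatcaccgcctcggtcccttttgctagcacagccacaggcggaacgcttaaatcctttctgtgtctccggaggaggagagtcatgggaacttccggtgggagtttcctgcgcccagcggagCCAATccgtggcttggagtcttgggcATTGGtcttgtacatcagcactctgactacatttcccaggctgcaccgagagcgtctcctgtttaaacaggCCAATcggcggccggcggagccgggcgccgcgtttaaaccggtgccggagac

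Plk1 and Prc1 each held 1 CHR core and 1 CCAAT match, Ect2 held 2 and 3, and Kif4 held 1 and 2. Spc25, which rose in both lines, held 1 CHR core and 2 CCAAT matches as well. The Gtse1 window shown held 3 CCAAT matches and its other window 1, and neither held TTTGAA. Nusap1 and Kif18a, with the second and the third largest fall in WT cells, held neither, nor did Birc5, Mad2l1, Nuf2, Plk4 and Pttg1. The 24 genes with a CHR core match had a median log2 fold change of -0.94 in WT cells, and the 14 genes with a window but no match -0.87. A match of letters is a description of the window and not a bound site.

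Other genes of the same processes were read from longer lists. Of 118 further genes of mitosis and its control 73 fell and 14 rose in WT cells (background 22.8% and 27.0%), with a median log2 fold change of -0.53. In Cfp1-/- cells 78 fell and 10 rose (background 21.4% and 27.7%), with a median of -0.53. Condensin and cohesin genes were the most uniform. Of 20 tested, 18 fell and none rose in WT cells and 17 fell and none rose in Cfp1-/- cells, with Rad21, the cohesin subunit cut at anaphase, at -1.43 and -1.34 on the log2 scale and Stag2, another cohesin subunit, at -1.41 in WT cells.

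Genes of the switch into mitosis did not all follow. Of 14, 4 fell (28.6%) and 2 rose (14.3%) in WT cells, and the share that fell was near that of all genes (background 22.8% and 27.0%). The 4 that fell were Pbk, Cks2, which encodes a Cdk1-binding subunit, Wee1, which encodes the kinase that inhibits Cdk1, and Cdkn3. Their log2 fold changes were -1.73, -1.63, -1.36 and -1.07. In Cfp1-/- cells 6 of the 14 fell (42.9%) and 1 rose (7.14%), against a background of 21.4% and 27.7%. Among 14 further APC/C genes 7 fell and 3 rose in WT cells (background 22.8% and 27.0%). Fbxo5, which encodes the APC/C inhibitor Emi1, had a log2 fold change of -1.72 in WT and -2.38 in Cfp1-/- cells. Ube2s and Cdc27 fell by 1.23 and 0.96 on the log2 scale in WT cells, whereas the subunit gene Anapc2 rose by 0.94.

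Of 28 further kinetochore and centromere genes 15 fell and 4 rose in WT cells (background 22.8% and 27.0%). Oip5, needed to load the centromeric histone, and Sgol2 fell by 1.52 and 1.11 on the log2 scale in WT cells, and Cenpt rose by 1.38. In Cfp1-/- cells 18 of the 28 fell and 1 rose (background 21.4% and 27.7%), and the highest log2 fold change was 0.47. Of 30 further genes of the spindle, centrioles and cytokinesis 21 fell and 4 rose in WT cells (background 22.8% and 27.0%). Depdc1a and the kinesin gene Kif20b had log2 fold changes of -1.64 and -1.49 in WT cells, while Fam83d, which recruits casein kinase to the spindle, and the kinesin gene Kif18b rose by 2.02 and 1.61. Fam83d rose in Cfp1-/- cells too, by 1.83.

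Genes of the MuvB complex and its partners moved unlike each other, and binding of their proteins to promoters was not measured. Of 12 genes of MuvB, DREAM and the Myb branch 8 fell and 1 rose in each line (background 22.8% and 27.0% in WT, 21.4% and 27.7% in Cfp1-/- cells). The gene that rose was Rbl2, which encodes p130, the pocket protein of DREAM, with log2 fold changes of 3.67 in WT (adjusted p = 2.8e-06) and 3.09 in Cfp1-/- cells (adjusted p = 6.0e-06). Mybl2, which encodes B-Myb, stood at 495 and 357 CPM in untreated and at 207 and 128 CPM in treated WT cells, a log2 fold change of -1.35, and its fall in Cfp1-/- cells was -1.18. Lin9, a MuvB subunit, fell by 0.81 and 0.69 on the log2 scale. The replicates of Mybl2 lay far apart within each group, but the groups did not overlap.

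Of 10 genes on the p53 route to arrest 5 rose in WT cells and 5 in Cfp1-/- cells (background 27.0% and 27.7%). Cdkn1a, which encodes the Cdk inhibitor p21, stood at 6.11 and 10.5 CPM in untreated and at 87.0 and 79.7 CPM in treated WT cells, and at 16.2 and 12.4 without and 59.9 and 56.9 CPM with doxorubicin in Cfp1-/- cells. Its log2 fold changes were 3.33 in WT and 2.03 in Cfp1-/- cells, and their difference of -1.30 did not pass the test (adjusted p = 0.18). Btg2, Plk2, Rprm and Ccng1 rose in WT cells by 3.44, 2.64, 1.60 and 1.5 on the log2 scale. Trp53 had a log2 fold change of 0.09 in WT cells (adjusted p = 0.59) and fell by 0.54 in Cfp1-/- cells (adjusted p = 0.009).

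The 42 DNA replication genes, which are transcribed earlier in the cycle, moved less. In WT cells 22 fell and 1 rose (background 22.8% and 27.0%), and in Cfp1-/- cells 26 fell and 1 rose (background 21.4% and 27.7%). The medians were -0.43 in both lines, against -0.87 and -0.91 for the 44 G2 and mitosis genes. Ccne1, which encodes cyclin E1, and Gmnn, which encodes the replication inhibitor geminin, fell most in WT cells, by 1.52 and 1.24 on the log2 scale. The difference between the lists was not tested.

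**Figure D4:**
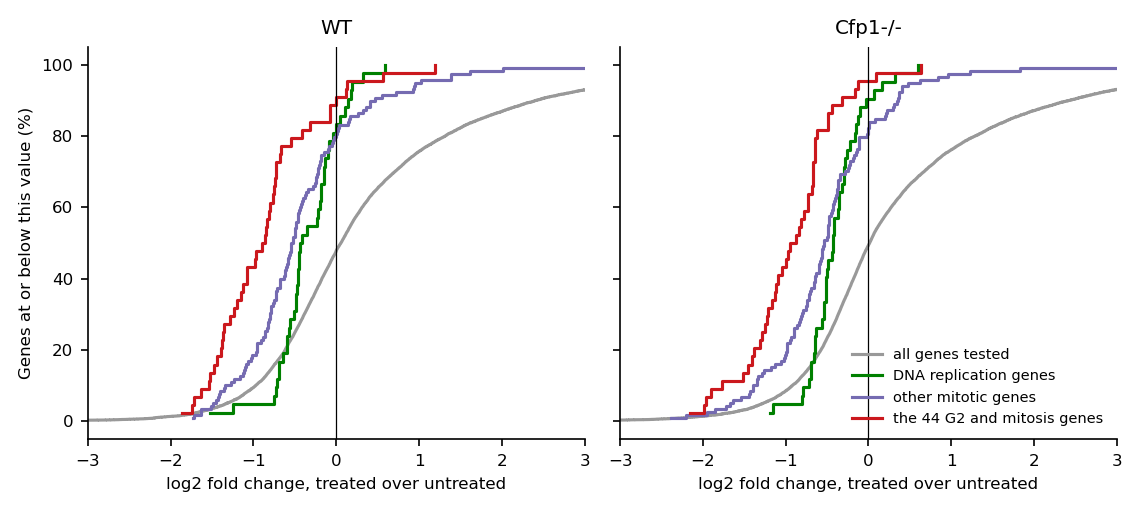
Percentage of genes (vertical axis) at or below each log2 fold change, treated over untreated (horizontal axis), in WT and Cfp1-/- ES cells, for the 44 G2 and mitosis genes, 118 other mitotic genes, 42 DNA replication genes and all 15762 genes tested. The curve of the 44 genes lies to the left of the others over most of its range in both lines, with medians of -0.87 and -0.91.

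The genotypes were also compared at rest. In untreated Cfp1-/- ES cells 15 of the 44 genes were lower than in untreated WT cells and 2 were higher, against 17.2% and 18.7% of all genes tested. The median log2 difference was -0.18, against 0.01 for all genes tested. The lower genes were Ccnb1, Cdk1, Plk4, Aurka, Nek2, Bub1, Bub1b, Mad2l1, Ttk, Cdc20, Sgol1, Kif18a, Tpx2, Ect2 and Nusap1. Scaling by total counts, which moved the median of all genes from 0.01 to 0.20, left 5 lower, which were Plk4, Aurka, Bub1b, Ttk and Nusap1, and made 5 higher.

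The smallest adjusted p was that of Ttk, which stood at 198 and 191 CPM in WT and at 129 and 131 CPM in Cfp1-/- cells (log2 difference -0.58, SE 0.10, adjusted p = 0.00267). Plk4 stood at 171 and 204 against 116 and 113 CPM (log2 difference -0.72, SE 0.13, adjusted p = 0.003), and Bub1b at 504 and 457 against 289 and 317 CPM (log2 difference -0.66, SE 0.13, adjusted p = 0.00366). Aurka had 178 and 158 CPM in WT and 86.9 and 96.7 CPM in Cfp1-/- cells, and its log2 difference of -0.87 (SE 0.19, adjusted p = 0.00719) was the largest of the 44. Cdc20 was lower by 0.57 on the log2 scale, at 298 and 274 against 184 and 202 CPM (adjusted p = 0.0117), Cdk1 by 0.62 and Ccnb1 by 0.56. Birc5 was higher, at 260 and 266 against 180 and 178 CPM (log2 difference 0.55, SE 0.11, adjusted p = 0.00417), and so was Aurkb, at 81.0 and 84.7 against 62.3 and 65.7 CPM (log2 difference 0.37, SE 0.12, adjusted p = 0.0313). The call of Aurkb was lost with DESeq2's Wald test (adjusted p = 0.0542), without a filter on low counts (0.0577) and without any 1 of the 4 untreated or the 2 treated Cfp1-/- libraries (0.059 to 0.144). Plk1, Mki67, Fzr1 and Foxm1 had log2 differences of 0.28, 0.12, -0.30 and 0.33 that did not pass the test.

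In treated cells 14 of the 44 genes were lower in Cfp1-/- than in WT cells and none was higher, against 12.1% and 16.0% of all genes tested. At an unadjusted p under 0.05, 20 of the 44 differed in either direction, a share near that of all genes tested (40.8%), and DESeq2's Wald test also called 0 higher. The median log2 difference was -0.32, against 0.02 for all genes. With libraries matched by replicate number, the median log2 ratio of the 44 genes lay 0.511 below that of all genes in replicate 2 and 0.068 below in replicate 1. This split depends on the match, and what libraries of the same number share is not stated. Gtse1 had the smallest adjusted p, with 315 and 301 CPM in WT and 170 and 162 CPM in Cfp1-/- cells (log2 difference -0.90, SE 0.11, adjusted p = 0.000705). Aurka followed, at 56.0 and 86.5 against 28.9 and 25.2 CPM (log2 difference -1.40, SE 0.20, adjusted p = 0.0015), and then Plk4, at 80.7 and 91.8 against 56.0 and 51.4 CPM (log2 difference -0.69, SE 0.13, adjusted p = 0.00578). Mad2l1 stood at 132 and 147 against 100 and 84.5 CPM (log2 difference -0.59, adjusted p = 0.00983), Kif18a at 42.3 and 56.6 against 32.0 and 30.0 CPM (log2 difference -0.68, adjusted p = 0.0121), and Ttk at 110 and 111 against 82.2 and 81.0 CPM (log2 difference -0.44, adjusted p = 0.0139).

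Aurka, Bub1, Bub1b, Cdk1, Ect2, Kif18a, Mad2l1, Plk4 and Ttk were lower in Cfp1-/- cells both without and with doxorubicin. With the replicate number as a block, which raised the count in treated cells from 14 to 20, Ccnb1 (adjusted p = 0.0338), Sgol1 (0.0365) and Tpx2 (0.0464) were lower in both as well. Of 42 DNA replication genes 20 were lower and 3 higher in untreated Cfp1-/- cells (background 17.2% and 18.7%). In treated Cfp1-/- cells 24 were lower and 4 higher (background 12.1% and 16.0%). The median log2 differences were -0.36 and -0.51. Both counts of the 44 genes depended on single libraries. The 15 genes lower in untreated cells became 4 without replicate 1 of either untreated group, 7 without WT replicate 2 and 8 without Cfp1-/- replicate 2. The 14 genes lower in treated cells became 4 without WT replicate 2, 7 without Cfp1-/- replicate 1 and 2 without Cfp1-/- replicate 2.

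**Figure D5:**
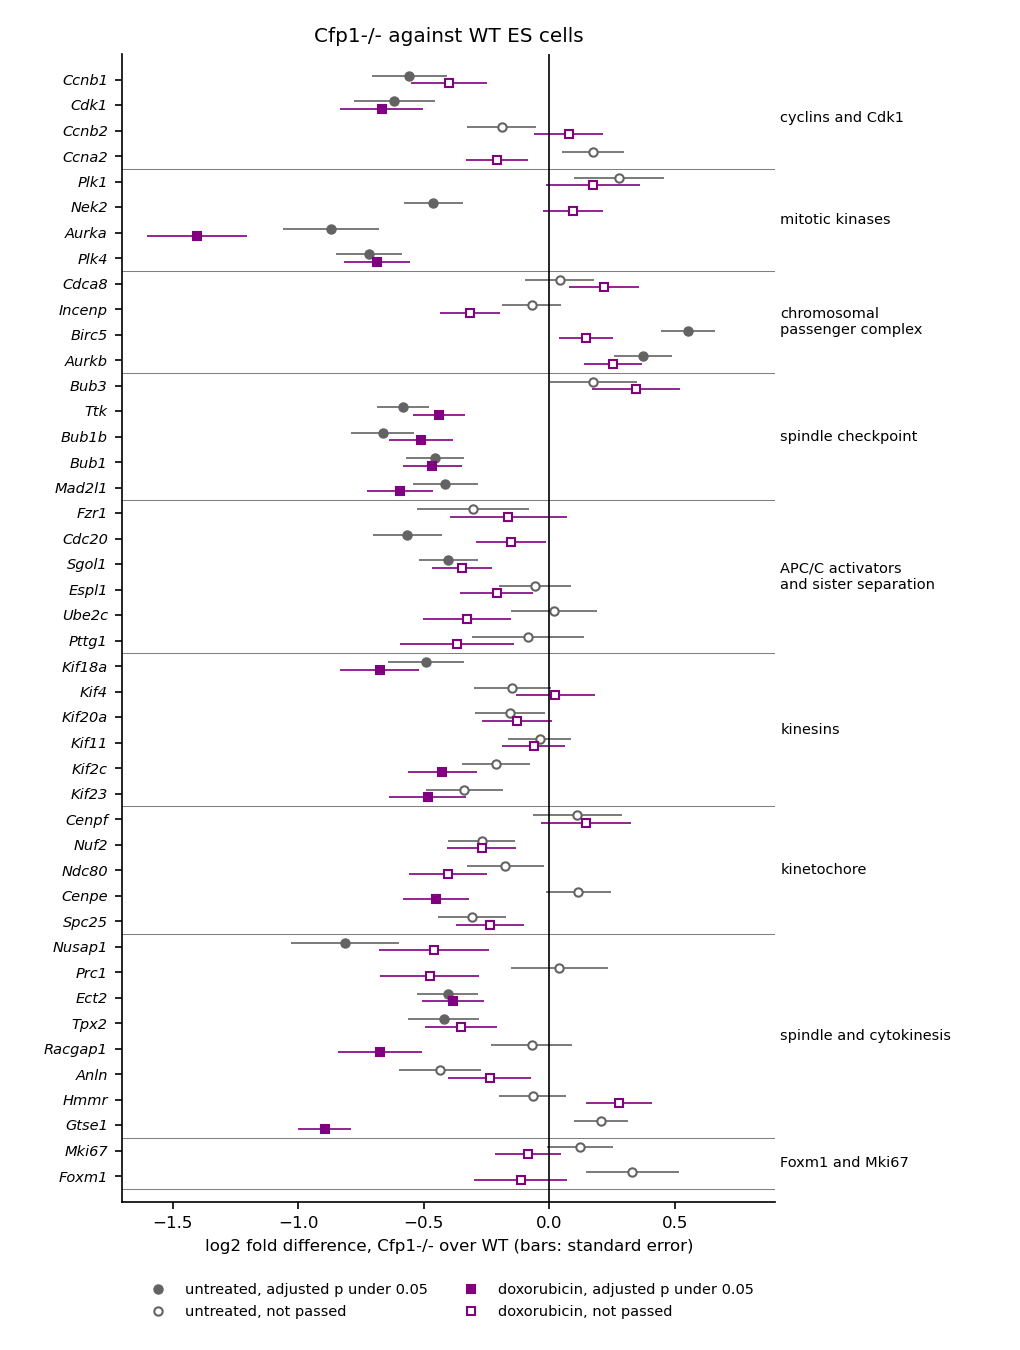
Log2 fold difference of each of the 44 genes (Cfp1-/- over WT) with its standard error in untreated (grey circles) and doxorubicin-treated (purple squares) ES cells, filled where the adjusted p was under 0.05. Aurka lies farthest to the left, at -0.87 and -1.40, Gtse1 moves from 0.21 without to -0.90 with doxorubicin, and Birc5 and Aurkb are the filled circles to the right of 0.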

How the data were processed

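ES cells of the 4 groups were sequenced after ribosomal RNA depletion in strand-specific libraries. Per the labels, the genome build was mm9 and the tools were STAR 2.2.1, HTSeq and DESeq. The authors deposited raw counts per gene and technical replicate, counted with HTSeq on sense exons without reads that fit several genes, and a normalized signal for each biological replicate, which is the sum over both runs after division by a size factor from DESeq. Ccnb1, Ccnb2 and Kif4 have a pseudogene copy in the annotation, so that their values are less certain. The depth per library is given with the results, and n = 2 limits precision more than counting error.

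Technical replicates were summed, without the truncated run. Counts were tested with edgeR 4.0.16 (filterByExpr, TMM, 4 group means, glmQLFit and glmQLFTest) in R 4.3.3, with Benjamini-Hochberg adjustment over the 15762 genes kept. Scripts were tested on simulated data in which all genes shared the same spread. For the response in WT cells 132 of 200 simulated 2-fold changes (66%) were recovered, with 6 false calls. Changes of this size can be missed. The 44 genes and all other lists were chosen with earlier results of these data known. Named were the 10 largest changes that passed the test in each line, genes past the interaction test, the 6 smallest adjusted p-values per genotype comparison, 9 genes whatever their values, genes affected by the truncated run, and up to 4 genes of each other list. A few further values were chosen after they were seen.

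The alternatives were other treatments of technical replicates, DESeq2's size factors and its Wald test (DESeq2 1.42.0), total count scaling, no filter on low counts, a replicate block, the compared groups alone, other study limits and each library left out. The labels number replicates alike in all groups, and same-numbered libraries deviated together (correlation 0.133 to 0.453 over 6 pairs of groups), so the numbers may pair the libraries. The main fit holds no term for such a pairing, and the replicate block is the alternative fit that does. What they share is not stated. Promoters came from RefSeq and not from the build of the counts. One gene that the naming rule covers is not reported here.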

Additional observations from a re-analysis of the deposited data

Results flagged for a closer look

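In the main fit the response of Gtse1 to doxorubicin differed between the lines by a test of the difference itself. It was -1.10 (Cfp1-/- minus WT, log2 scale, adjusted p = 0.0315 from edgeR's interaction test), with 136 and 133 CPM going to 315 and 301 CPM in WT cells and 161 and 150 going to 170 and 162 CPM in Cfp1-/- cells. DESeq2's Wald test gave -1.10 with an adjusted p of 1.52e-06 and the replicate block gave -1.10 with 0.00262. With all technical replicates summed the difference was -1.06 with 0.0489. The call was lost whichever library was left out, as given with the results. Total count scaling also called Gtse1 higher in treated than in untreated Cfp1-/- cells (log2 fold change 0.302, adjusted p = 0.036). Groups of 2 replicates are too small to single out a library by its distance from the others.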

How the results depend on the processing

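Counts of genes lower after doxorubicin stayed within 1.5 times under every alternative fit in both lines, and no gene of the 44 that passed a test changed direction. With total count scaling 2 genes were higher in treated Cfp1-/- cells, 5 lower and 5 higher in untreated Cfp1-/- against WT cells, and 3 (WT) and 5 (Cfp1-/-) genes lower past the study limits. DESeq2's Wald test and the fit without a filter each gave 1 gene higher in untreated Cfp1-/- cells. A fold change of at least 2 gave 19 genes lower past the study limits in each line. The cause of these changes was not tested.

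With each library left out in turn, which leaves 1 library in a group assumed to vary like the others, 35 to 37 genes were lower and 1 to 2 higher in treated WT cells, 33 to 39 lower and 1 higher in treated Cfp1-/- cells, and 0 passed the interaction test. In Cfp1-/- against WT cells 4 to 15 were lower and 1 to 2 higher untreated, and 2 to 17 lower treated. Past the study limits 8 to 15 (WT) and 6 to 14 (Cfp1-/-) were lower. The median relative to all genes ran from -1.11 to -0.86 and from -1.06 to -0.79 for the responses in WT and Cfp1-/- cells, from -0.15 to 0.09 for their difference, and from -0.27 to -0.16 and -0.46 to -0.21 for the genotypes without and with doxorubicin. The replicate block gave 36 and 39 genes lower after doxorubicin in WT and Cfp1-/- cells, and 16 and 20 lower in Cfp1-/- cells without and with it. The calls it added were Anln without doxorubicin and Ccnb1, Incenp, Sgol1, Ndc80, Tpx2 and Prc1 with it, and it changed no other call. With 2 replicates per group, Foxm1 had SEs near 0.19 on the log2 scale, and genes of higher level such as Prc1 and Nusap1 had SEs at least as large. Small changes may have gone undetected at any level.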
